A study of Mus musculus with 12 samples.

Results

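The solute carriers (SLCs) are membrane proteins that move amino acids, sugars, metals, ions, vitamins, lipids and metabolites across the plasma membrane and across the membranes of mitochondria, lysosomes, the ER and the Golgi. In macrophages they set which nutrients enter the cell, which metals are held from microbes, and which products of digested cargo leave the lysosome. LPS, a cell wall component of Gram-negative bacteria that is sensed by TLR4, changes what macrophages take up and burn. The expression of 169 solute carrier genes was followed over LPS stimulation, chosen by a symbol of the form Slc, a number, a and a number, with at least 1 CPM (the reads of a gene scaled to a common library size) in at least 2 libraries. They were 169 of the 11885 genes tested and of the 12850 genes listed. The table held 190 such symbols, of which 12 were below that level and 9 (*Slc2a1*, *Slc2a6*, *Slc7a2*, *Slc7a11*, *Slc11a1*, *Slc11a2*, *Slc16a1*, *Slc16a3* and *Slc40a1*) were set aside by the rule. The rule also took in *Slc9a3r1* and *Slc9a3r2*, which encode PDZ scaffold proteins and not carriers.

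The RNA came from thioglycollate-elicited peritoneal exudate cells (PECs) of C57BL/6 mice, either WT or homozygous for the S513A knock-in of *Zc3h12a* (*Zc3h12a* S513A/S513A, below S513A), an allele made by genome editing that replaces a phosphorylated serine of Regnase-1. Regnase-1 is an endonuclease that degrades inflammatory mRNAs. The exudate was raised with thioglycollate medium (4%, 2 ml) given 3.5 days before harvest, and cultured cells received 100 ng/ml LPS for 0, 4 or 8 hr. Each of the 6 groups of genotype and time held 2 libraries. The age and sex of the mice, and whether the 2 libraries of a group came from separate animals, are not given, so p values measure the spread between these libraries, which may be technical.

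The libraries held 9525979 to 12439960 reads on the listed genes, and 0.92 to 1.21% of these fell on the 169 SLC genes. The 6 macrophage markers (*Adgre1*, *Cd68*, *Itgam*, *Csf1r*, *Lyz2*, *Mertk*) summed to between 16100 and 26300 CPM in every library, and none of the 4 T cell or 4 erythroid markers was listed. Most of the macrophage sum was *Lyz2*, and the other macrophage markers did not move together. From 0 to 8 hr in WT replicate 1, *Adgre1* went from 17497 to 31249 reads and *Itgam* from 22833 to 12045. The 2 neutrophil markers listed of 6, *Camp* and *S100a8*, summed to 20.3 to 54.2 CPM at 0 hr, 45.4 to 108 at 4 hr and 33.5 to 102 at 8 hr, the 4 B cell markers to between 3.44 and 8.87, the 3 mast cell markers listed of 4 to between 1.19 and 2.81, and the 3 mesothelial markers listed of 4 to at most 2.47. The 2 eosinophil markers listed of 4, *Ccr3* and *Siglecf*, summed to 15.3 to 18.5 CPM at 0 hr, 8.02 to 10 at 4 hr and 3.62 to 4.58 at 8 hr. Nearly all of that sum was *Siglecf*, which fell from 234, 197, 196 and 218 reads at 0 hr to 45, 44, 34 and 32 at 8 hr. *Ccr3* had at most 8 reads in a library and did not fall, and *Epx* and *Prg2* were not listed. The part of neutrophils or eosinophils in the rises and falls of SLC genes below was not tested, and in a bulk sample fewer cells of a type and less RNA per cell cannot be told apart. Replicates of both genotypes at 4 hr and of S513A at 8 hr differed along 1 shared component, which took 39.2% of the variation between replicates. Results that moved with it are given below with that component as a term. It was computed from these same replicate differences, so as a term it leaves the fold changes unchanged and lowers only the residual spread. P values with it are therefore biased low. The peptide transporter gene *Slc15a2* had no read in any of the 3 libraries numbered 1 of S513A, as described below, and whether libraries of 1 number share a source is not given.

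Promoter sequence is shown for *Slc6a12*, which had the largest rise of those of the 169 SLC genes that held more than 10 reads in every library, and for the 3 genes with the largest falls at 4 hr among those with an E-box. Gene positions given here are whole-gene spans in RefSeq (GRCm38.p6, the build named mm10). RefSeq promoters were found for 127 of the 169 genes, and the 250 bases before each start listed there were searched on both strands for the NF-κB motif, the interferon response element core (GAAANNGAAA), the AP-1 site (TGANTCA), the metal response element core (TGCNCNC) and the E-box (CACGTG). For 95 of the 127, bases after a listed start matched an annotated transcript of the gene on the same strand. The starts of the others were not matched in this way. The 250 bases before the start of *Slc6a12* (chr6:121342324-121342573, plus strand, with the NF-κB motif in capitals, beginning 133 bases before the start) and of *Slc36a1* (chr11:55204090-55204339, plus strand), *Slc27a1* (chr8:71570344-71570593, plus strand) and *Slc37a3* (chr6:39377708-39377957, minus strand), each with its E-box in capitals, read 5′ to 3′ as follows. A gene can have several starts: the window of *Slc6a12* precedes its first, with later starts also listed, while that of *Slc27a1* precedes a later start and lies within the gene's span, and those of *Slc36a1* and *Slc37a3* reach a few bases into it.
Slc6a12: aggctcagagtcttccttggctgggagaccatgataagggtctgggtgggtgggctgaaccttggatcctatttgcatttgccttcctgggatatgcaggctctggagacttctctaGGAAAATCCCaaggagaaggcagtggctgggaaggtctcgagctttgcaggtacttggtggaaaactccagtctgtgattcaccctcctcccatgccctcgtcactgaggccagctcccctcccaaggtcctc
Slc36a1: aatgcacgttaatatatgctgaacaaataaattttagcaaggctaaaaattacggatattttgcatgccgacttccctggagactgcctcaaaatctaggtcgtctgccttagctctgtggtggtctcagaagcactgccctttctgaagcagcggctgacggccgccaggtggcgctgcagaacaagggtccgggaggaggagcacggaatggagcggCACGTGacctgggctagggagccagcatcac
Slc27a1: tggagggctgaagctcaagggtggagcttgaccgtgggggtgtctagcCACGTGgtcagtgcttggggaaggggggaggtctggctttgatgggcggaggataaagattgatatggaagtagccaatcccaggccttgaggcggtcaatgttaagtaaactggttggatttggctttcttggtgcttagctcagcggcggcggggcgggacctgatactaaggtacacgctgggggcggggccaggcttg
Slc37a3: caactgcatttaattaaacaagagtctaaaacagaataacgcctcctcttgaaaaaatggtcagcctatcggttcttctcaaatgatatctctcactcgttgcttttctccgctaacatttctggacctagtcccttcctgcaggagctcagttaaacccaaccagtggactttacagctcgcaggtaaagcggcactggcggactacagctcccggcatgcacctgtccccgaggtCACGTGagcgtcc

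The E-box begins 31 bases before the listed start of *Slc36a1*, 202 before that of *Slc27a1* and 13 before that of *Slc37a3*. Among the SLC genes that were lower at 4 hr than at 0 hr and had a promoter, 14 of 44 (31.8%) held CACGTG, against 4 of 41 (9.76%) of those that were higher and 951 of 9345 (10.2%) of all genes tested. Over all SLC genes with a promoter, whether called or not, the share was 23 of 127 (18.1%). Of all genes lower at 4 hr it was held by 310 of 2535 (12.2%), and of all genes higher at 4 hr by 262 of 2736 (9.58%). The other carriers among those 14 included *Slc38a7*, *Slc12a7*, *Slc12a9*, *Slc35a5* and *Slc29a1*. The NF-κB motif was found in 5 of the 41 higher genes (12.2%), 4 of the 44 lower genes (9.09%) and 10.6% of all genes tested. The interferon response element core was found in 1 higher and 1 lower SLC gene and in 3.42% of all genes. The AP-1 site was found in 2 of 41 higher genes (4.88%), 7 of 44 lower genes (15.9%) and 5.55% of all genes, and the metal response element core in 56.1%, 54.5% and 56.4%. These shares describe letters in a window and were not tested.

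Levels of different genes were compared per length, as CPM per kb of exon. On that scale the most abundant SLC transcripts over the 12 libraries were *Slc48a1*, a haem transporter of the endolysosome, at a mean of 255.4, and *Slc25a5*, an ADP/ATP carrier of the inner mitochondrial membrane, at 244 CPM per kb. They were followed by *Slc15a3*, a lysosomal peptide and histidine transporter, at 177.6, *Slc31a2*, a copper transporter, at 168.1, and *Slc3a2*, the CD98 heavy chain that carries several amino acid exchangers to the membrane, at 165.8 CPM per kb. Over the 12 libraries *Slc48a1* spread from 505 to 934 CPM and *Slc25a5* from 243 to 506 CPM, so the order of these neighbours is not firm, and it changed with time. At 0 hr *Slc25a5* stood at 267 and *Slc48a1* at 238.6 CPM per kb while *Slc15a3*, *Slc3a2* and *Slc31a2* stood at 84.17, 83.04 and 53.61, and at 8 hr *Slc48a1* reached 315.1 and *Slc15a3*, *Slc31a2*, *Slc25a5* and *Slc3a2* lay between 191.2 and 239.3. Of the exons of *Slc15a3*, 28.1% overlap *Tmem132a*, and the reads were mapped as unstranded. Elsewhere the leading gene of a group was far lower, down to 4.436 CPM per kb for *Slc16a6* among the monocarboxylate and dicarboxylate transporters, whose exons overlap other genes over 21.5% of their length.

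**Figure D1:**
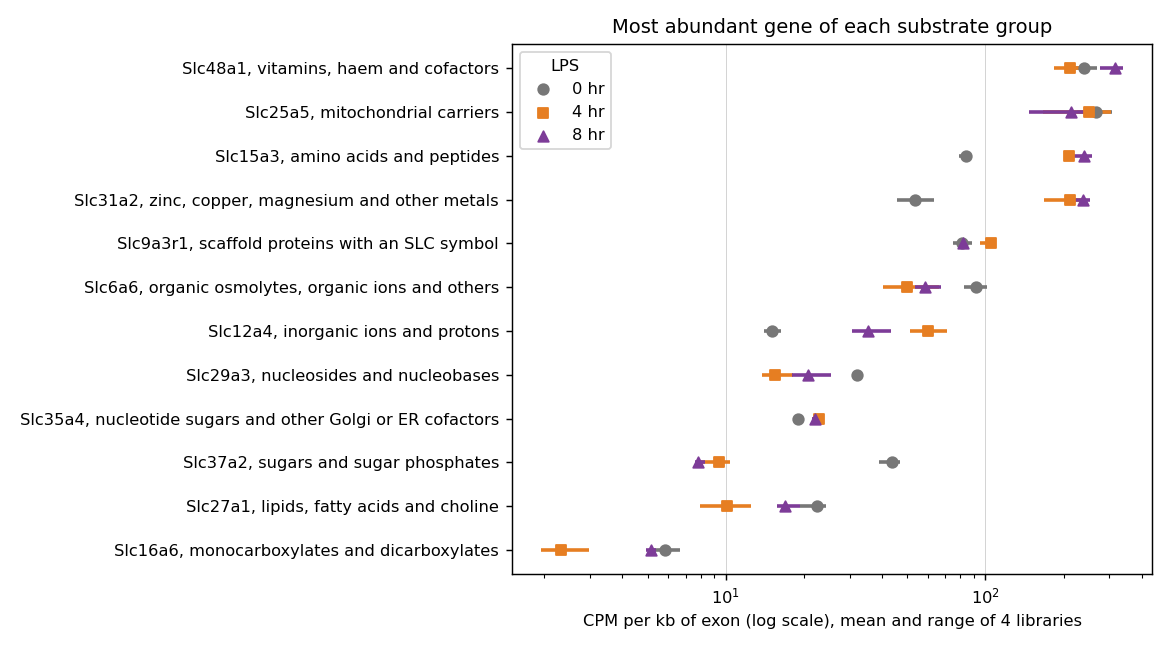
Mean level of the most abundant SLC gene of each substrate group, in CPM per kb of exon on a log axis, at 0 hr (circles), 4 hr (squares) and 8 hr (triangles) of LPS, with lines from the lowest to the highest of the 4 libraries of each time. *Slc31a2* moves from 53.61 at 0 hr to 212.4 at 4 hr and *Slc37a2* from 43.5 to 9.396, while *Slc25a5* keeps between 214 and 267.

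The first question was which carriers LPS moves. Each time was compared with 0 hr as the mean of the WT and S513A contrasts in a limma model of the 12 libraries, and called at an adjusted p under 0.05 (Benjamini-Hochberg over 11885 genes). At 4 hr, 50 of the 169 SLC genes (29.6%) were higher and 59 (34.9%) lower than at 0 hr, against 29.1% higher and 26.7% lower among all genes tested. At 8 hr, 51 (30.2%) were higher and 49 (29%) lower, where 24.5% of all genes were higher and 21.6% lower. On the log2 scale the SLC genes had a median change of −0.08 at 4 hr and −0.05 at 8 hr, beside 0.02 and −0.000702 for every gene tested. Between 4 and 8 hr, 38 rose and 26 fell, where 12.8% of all genes rose and 12.8% fell. All 109 calls at 4 hr, 100 at 8 hr and 64 between 4 and 8 hr had the same sign in WT and S513A cells, and in 106, 86 and 56 of them the 4 libraries of one time all lay on one side of the 4 of the other. Calls were made on the mean of the genotypes, so genes with opposite signs would seldom be called. The shared sign is thus largely set by the calling and does not compare the genotypes. Contrasts that share the libraries of a time, at 0, 4 or 8 hr, are given side by side and are not independent.

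**Figure D2:**
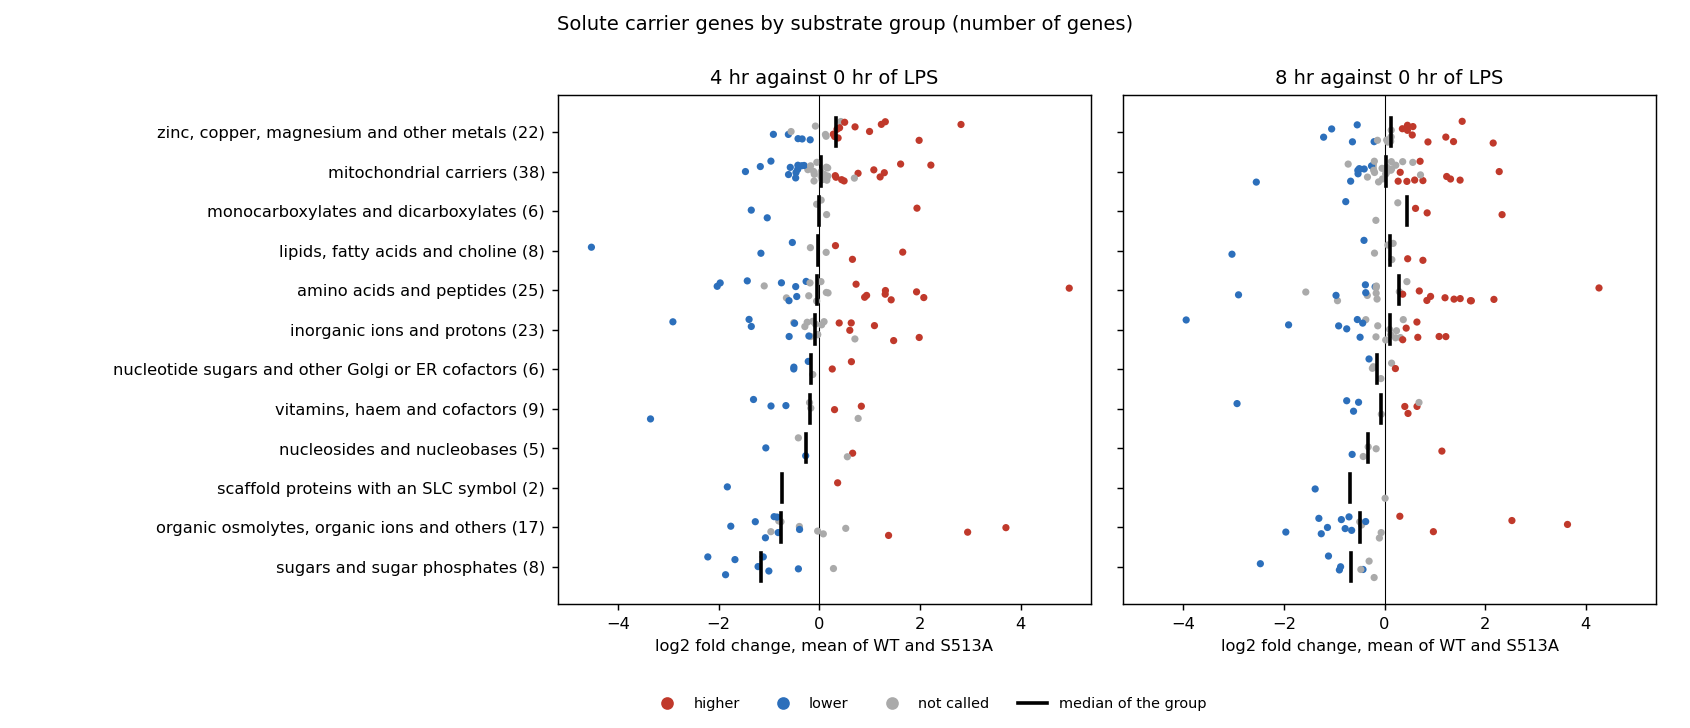
Log2 fold change of each of the 169 SLC genes at 4 hr (left) and 8 hr (right) against 0 hr of LPS, mean of WT and S513A, by substrate group. Red points were higher and blue points lower at an adjusted p under 0.05 (limma), grey points were not called, and the black line is the group's median. The sugar group lies left of 0 apart from 1 gene at 4 hr, with a median of −1.17, and the metal group has a median of 0.33.

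Sugar and sugar phosphate transporters were the group with the largest share of lower genes. At 4 hr, 7 of 8 (87.5%) were lower and none was higher, with a median log2 fold change of −1.17. Of all genes tested, 26.7% were lower and 29.1% higher at 4 hr. At 8 hr 5 of the sugar transporters (62.5%) were lower with a median of −0.67, beside 21.6% of all genes. The 8 sugar genes leave out *Slc2a1* and *Slc2a6*, set aside by the rule, which were both higher. *Slc2a1* rose by 0.47 and 0.46 on the log2 scale at 4 and 8 hr, and *Slc2a6* by 2.87 and 2.60. *Slc37a2* (chr9:37229149-37255738), a sugar phosphate antiporter of the ER that is abundant in macrophages, measured 290, 312, 295 and 259 CPM in the 2 WT and 2 S513A libraries at 0 hr. It measured 64.9, 69, 64 and 51.8 CPM at 4 hr and 55.2, 51.8, 50.9 and 50.6 CPM at 8 hr, so that every LPS library lay below every 0 hr library. Its log2 fold change was −2.22 ± 0.09 (SE, adjusted p 5.05e-09, limma) at 4 hr and −2.47 ± 0.09 (adjusted p 3.51e-09) at 8 hr. Its relatives *Slc37a1* and *Slc37a4*, the glucose-6-phosphate translocase, fell at 4 hr by 1.86 ± 0.33 and 1.00 ± 0.13 on the log2 scale, and at 8 hr by 0.90 ± 0.33 and 0.43 ± 0.13. *Slc37a3*, filed among the other organic ions, fell by 0.82 ± 0.09 and 0.86 ± 0.09. *Slc45a4*, a proton-coupled sugar transporter, went from between 41.7 and 50.8 CPM at 0 hr to between 11.2 and 18.2 at 4 hr and between 23.3 and 30 at 8 hr. The intracellular glucose transporter *Slc2a8* fell by 1.22 ± 0.13 and 1.11 ± 0.13 on the log2 scale at 4 and 8 hr. The urate transporter *Slc2a9* fell by 1.11 ± 0.12 at 4 hr and stood at −0.31 ± 0.12 (adjusted p 0.064) at 8 hr, and *Slc45a3* was not called at either time.

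Metal transporters leaned the other way, with 12 of 22 higher (54.5%) and 5 lower (22.7%) at 4 hr (median 0.33), beside 29.1% and 26.7% of all genes. At 8 hr 10 were higher (45.5%) and 5 lower (22.7%), with a median of 0.13, beside 24.5% and 21.6% of all genes. These 22 leave out *Slc11a1*, *Slc11a2* and *Slc40a1*, set aside by the rule. Their log2 fold changes were 0.14 (not called), 1.14 and −1.03 at 4 hr. At 8 hr they were 0.56, 1.47 and 0.09 (not called). *Slc39a14* (chr14:70303467-70351452) encodes ZIP14, an importer of zinc and non-transferrin iron. It measured 23.4, 21.7, 18.4 and 17.4 CPM at 0 hr in the 2 WT and 2 S513A libraries, 133, 177, 148 and 115 CPM at 4 hr, and 44.8, 48.6, 62.7 and 53.4 CPM at 8 hr. The 3 times did not overlap, with 4 hr the highest, a rise of 7.05-fold at 4 hr (log2 2.82 ± 0.12, adjusted p 7.34e-09, limma) and a fall of 1.45 ± 0.12 on the log2 scale from 4 to 8 hr. The copper transporters rose and stayed up. *Slc31a2* (chr4:62280393-62298412) went from 92.9, 103, 111 and 129 CPM to 458, 341, 448 and 479 at 4 hr and 484, 514, 432 and 508 at 8 hr, a log2 fold change of 1.98 ± 0.11 and 2.16 ± 0.11. The high-affinity copper importer *Slc31a1* (chr4:62360583-62391769), near it on chromosome 4, rose from between 89.8 and 102 CPM to between 184 and 249 at 4 hr and between 244 and 304 at 8 hr.

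Of the zinc transporters, the exporters *Slc30a6* and *Slc30a4* rose at 4 hr by 1.31 and 1.00 on the log2 scale, and *Slc30a4* was back at 0.13 ± 0.15 (adjusted p 0.512) at 8 hr. The importer *Slc39a1* rose by 0.71 ± 0.07 and 0.55 ± 0.07 at 4 and 8 hr. *Slc39a7* rose by 0.40 ± 0.07 and 0.46 ± 0.07, but its exons overlap another annotated gene over 80.7% of their length. *Slc39a4*, the intestinal zinc importer, was called at 8 hr only, with 5.12 to 8.74 CPM at 0 hr, 8.22 to 11.4 at 4 hr and 15.2 to 18.5 at 8 hr, and it rose between 4 and 8 hr by 0.79 ± 0.17. The importers *Slc39a10* and *Slc39a11* fell at both times and further by 8 hr, *Slc39a11* by 0.61 ± 0.08 and then 1.05 ± 0.08 on the log2 scale. *Slc39a8*, which encodes ZIP8, had a log2 fold change of −0.56 ± 0.23 (adjusted p 0.0553) at 4 hr and of −1.21 ± 0.23 (adjusted p 0.00122) at 8 hr.

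Amino acid and peptide transporters moved in both directions, with 9 of 25 higher and 8 lower at 4 hr and 11 higher and 5 lower at 8 hr (medians −0.05 and 0.29). The shares were 36% and 32% at 4 hr, beside 29.1% and 26.7% of all genes. At 8 hr they were 44% and 20%, beside 24.5% and 21.6% of all genes. Some exchangers and carriers of the plasma membrane were among the genes that rose, but not all of them did. *Slc1a5* went from between 47.3 and 58.5 CPM at 0 hr to between 25 and 45.4 at 4 hr and between 37.3 and 44.6 at 8 hr. *Slc16a10*, an aromatic amino acid transporter, measured 123, 124, 117 and 121 CPM at 0 hr, followed by 445, 517, 468 and 424 at 4 hr and 291, 294, 353 and 326 at 8 hr. It stood above 0 hr in all 8 LPS libraries, with a log2 fold change of 1.93 ± 0.08 (adjusted p 5.28e-09, limma) at 4 hr and 1.38 ± 0.08 at 8 hr. *Slc3a2* rose by 1.43 ± 0.08 and 1.20 ± 0.08 on the log2 scale. Of its light chains, the neutral amino acid exchangers *Slc7a5* and *Slc7a8* rose by 0.90 ± 0.17 and 0.94 ± 0.14 at 4 hr, and *Slc7a8* reached 1.71 ± 0.14 at 8 hr. Others of that family differed. *Slc7a6* (5.49 to 8.47 CPM at 0 hr, 6.68 to 10.6 at 4 hr) and *Slc7a7* (21.9 to 26.6, then 18.8 to 24.6) overlapped between these times. *Slc7a11*, set aside by the rule, rose by 3.18 on the log2 scale at 4 hr. The cationic amino acid transporter *Slc7a1* rose by 1.31 ± 0.16 and 0.91 ± 0.16. *Slc15a3* rose from between 435 and 483 CPM to between 1130 and 1170 at 4 hr and between 1170 and 1410 at 8 hr.

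Among the 169 genes, the 3 largest fitted rises at 4 hr were those of *Slc1a2*, *Slc6a4* and *Slc6a12*. They are carriers of neurotransmitters and osmolytes filed under amino acids and organic osmolytes. Of the genes set aside by the rule, *Slc7a2* and *Slc7a11* rose by 4.30 and 3.18 on the log2 scale, both more than *Slc6a12*. *Slc6a12* (chr6:121342574-121365773), which takes up betaine and GABA, measured 9.09, 6.89, 7.94 and 9.19 CPM at 0 hr, followed by 71.6, 59.2, 64.3 and 59.5 at 4 hr and 54, 47.7, 42.6 and 46.6 at 8 hr. Every LPS library stood over 4 times above every 0 hr library, and the log2 fold change was 2.95 ± 0.11 (adjusted p 4.44e-09, limma) at 4 hr and 2.53 ± 0.11 at 8 hr. Its neighbour *Slc6a13* (chr6:121300288-121337721), a GABA and taurine transporter, was far lower, at 0.423 to 1.27 CPM at 0 hr and 2.41 to 4.82 at 4 hr, a log2 fold change of 2.08 ± 0.27. At 8 hr it measured 4.04 and 3.77 CPM in WT and 1.42 and 1.57 in S513A cells. *Slc1a2*, the glutamate transporter known from astrocytes, had 0, 2, 1 and 3 reads at 0 hr in the WT and S513A libraries. At 4 hr it had 60, 43, 30 and 33 reads, and at 8 hr it had 25, 20, 24 and 32. The ratio of summed reads per library size at 4 hr to 0 hr was 34.2, with an exact 95% counting interval from 15.4 to 94.5. The serotonin transporter *Slc6a4* had 0 to 2 reads at 0 hr and 13 to 22 at 4 hr, a ratio of 14.4 (interval 6.3 to 40.6). For *Slc1a2* and *Slc6a4* the fitted log2 fold changes, 4.97 and 3.71 at 4 hr, depend on the 0.5 read added to each count, and the interval of *Slc6a4* reaches below the 7.05-fold rise of *Slc39a14*, so its rank is not firm. At 0 hr these 2 genes reached at most 0.294 and 0.219 CPM, so both passed the filter through LPS libraries alone. The direction of their change was thus given by the filter. *Slc6a13* also passed only with its LPS libraries.

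The glycine transporter *Slc6a9* was late. It measured 4.29, 3.19, 2.5 and 4.91 CPM at 0 hr in the WT and S513A libraries, 4, 5.01, 3.59 and 3.78 at 4 hr, and 15, 13.9, 19.7 and 16.9 at 8 hr. The first 2 times overlap and the 8 hr libraries stand above both, with a rise of 2.00 ± 0.20 on the log2 scale between 4 and 8 hr (adjusted p 7.4e-05, limma). Its exons overlap other genes over 27.8% of their length.

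Other amino acid transporters fell. *Slc36a1* (chr11:55204322-55236330), a proton-coupled amino acid transporter of the lysosome, measured 136, 136, 101 and 106 CPM at 0 hr, followed by 26.4, 41.7, 29.2 and 22.1 at 4 hr and 60.7, 53.8, 71.3 and 58.6 at 8 hr. The 4 hr libraries were the lowest and the 8 hr libraries lay between, and its log2 fold change was −2.03 ± 0.14 (adjusted p 5.59e-07, limma) for 4 hr and −0.96 ± 0.14 for 8 hr. *Slc43a2* (chr11:75529915-75577575), a branched-chain amino acid transporter, fell from between 282 and 312 CPM to between 58 and 99.2 at 4 hr and returned to between 202 and 282 at 8 hr. That rise between 4 and 8 hr was 3.02-fold (adjusted p 2.2e-05, limma), and at 8 hr it overlapped 0 hr, at −0.37 ± 0.13. *Slc38a9*, the lysosomal arginine transporter that signals to mTORC1, fell by 0.75 ± 0.08 at 4 hr and stood at −0.16 ± 0.08 (adjusted p 0.13) at 8 hr. *Slc36a2*, a relative of *Slc36a1*, fell at both times, from between 3.31 and 5.61 CPM to between 1.1 and 2.68 and then to between 0.379 and 1.09.

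Among the vitamin and haem carriers, 2 of 9 were higher and 4 lower at 4 hr, and 3 were higher and 4 lower at 8 hr (medians −0.19 and −0.06). Of all genes, 29.1% were higher and 26.7% lower at 4 hr, and 24.5% and 21.6% at 8 hr. *Slc46a3* (chr5:147875897-147894861), a lysosomal transporter related to the folate carriers, measured 32.5, 35.1, 33.1 and 30.6 CPM at 0 hr, followed by 3.12, 3.26, 3.49 and 2.96 at 4 hr and 3.75, 4.34, 5.3 and 3.95 at 8 hr. No LPS library reached 6 CPM, and the log2 fold change at 4 hr, −3.36 ± 0.13, had the smallest adjusted p of the 169 genes (4.07e-09, limma). The folate transporters *Slc19a1* and *Slc46a1* fell by 0.96 ± 0.21 and 1.31 ± 0.25 at 4 hr. The ascorbate transporter *Slc23a2* rose by 0.84 ± 0.11 and 0.65 ± 0.11. *Slc48a1* was not called at 4 hr (−0.17 ± 0.10) and rose by 0.40 ± 0.10 at 8 hr, from between 598 and 740 CPM to between 758 and 934.

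Ion transporters were split, with 6 of 23 higher (26.1%) and 6 lower (26.1%) at 4 hr, near the 29.1% and 26.7% of all genes. At 8 hr 6 were higher (26.1%) and 7 lower (30.4%), beside 24.5% and 21.6% of all genes. The medians were −0.08 and 0.10. The potassium-chloride cotransporter *Slc12a4* rose from between 60 and 70.1 CPM to between 220 and 303 at 4 hr and fell back to between 131 and 185 at 8 hr. The sodium-bicarbonate cotransporter *Slc4a7* rose by 1.48 ± 0.13. The largest falls were those of *Slc9a9* and *Slc26a11*. *Slc9a9* (chr9:94669557-95230453), a sodium/proton exchanger of endosomes, measured 9.51, 8.04, 8.21 and 9.1 CPM at 0 hr, followed by 2.95, 3.81, 3.2 and 3.31 at 4 hr and 0.712, 0.62, 0.474 and 0.487 at 8 hr. The 3 times were apart, and its log2 fold change was −1.40 ± 0.16 for 4 hr and −3.94 ± 0.16 (adjusted p 1.2e-08, limma) for 8 hr, where 4 to 7 reads were left in each library. *Slc26a11*, an anion exchanger, fell from between 12.2 and 17.4 CPM to between 1.45 and 3.08 at 4 hr and lay between 3.19 and 5.56 at 8 hr. The sodium/calcium exchanger *Slc8a1* fell by 1.35 ± 0.10 and 0.75 ± 0.10.

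Mitochondrial carriers, the largest group, had shares of called genes near those of all genes, with 10 of 38 higher (26.3%) and 11 lower (28.9%) at 4 hr and 10 higher and 8 lower at 8 hr (medians 0.04 and 0.03). *Slc25a37* (chr14:69241848-69285544), mitoferrin-1, which brings iron into mitochondria, measured 49.9, 48.9, 36.2 and 41.1 CPM at 0 hr, followed by 173, 246, 215 and 186 at 4 hr and 182, 177, 268 and 233 at 8 hr. All 8 LPS libraries stood above 0 hr, with log2 fold changes of 2.22 ± 0.11 and 2.28 ± 0.11 (adjusted p 4.08e-08 and 4.42e-08, limma). The glutamate carrier *Slc25a22*, the dicarboxylate carrier *Slc25a10*, the calcium-regulated ATP-Mg/phosphate carrier *Slc25a25* and the pyrimidine nucleotide carrier *Slc25a33* rose by 1.08 to 1.62 on the log2 scale at 4 hr, and the citrate carrier *Slc25a1* by 0.33 ± 0.07 at 4 hr and 0.60 ± 0.07 at 8 hr. The aspartate/glutamate carrier *Slc25a12* was not called at 4 hr (0.13 ± 0.07) and rose by 0.76 ± 0.07 at 8 hr. *Slc25a23*, a relative of *Slc25a25*, fell to between 0.748 and 1.42 CPM at 4 hr and, with 2 to 6 reads a library, to between 0.239 and 0.617 at 8 hr. *Slc25a5* and its relative *Slc25a4* were not called at either time.

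Fatty acid and choline transporters gave 3 of 8 higher and 3 lower at 4 hr and 2 and 2 at 8 hr (medians −0.02 and 0.11). All genes gave 29.1% higher and 26.7% lower at 4 hr, and 24.5% and 21.6% at 8 hr. *Slc27a6*, a fatty acid transport protein, had 110, 114, 74 and 101 reads at 0 hr, followed by 8, 2, 1 and 4 at 4 hr and 12, 8, 12 and 7 at 8 hr. It had the largest fall at 4 hr, a ratio of summed reads per library size of 0.0464 (exact 95% counting interval 0.0257 to 0.0775). *Slc27a1*, of the same family, fell at 4 hr, by 1.16 ± 0.12 on the log2 scale, and was at −0.41 ± 0.12 (adjusted p 0.0179, limma) at 8 hr. The choline transporter *Slc44a1* rose from between 58.2 and 60.1 CPM to between 178 and 199 at 4 hr and came down to between 70.4 and 97.2 at 8 hr, a fall of 1.20 ± 0.08 on the log2 scale between the LPS times.

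Osmolyte, organic ion and other carriers gave 3 of 17 higher (17.6%) and 7 lower (41.2%) at 4 hr, beside 29.1% and 26.7% of all genes. At 8 hr 4 were higher (23.5%) and 9 lower (52.9%), beside 24.5% and 21.6% of all genes. The medians were −0.76 and −0.49. The taurine transporter *Slc6a6*, the most abundant of this group per kb, fell from between 697 and 860 CPM to between 342 and 559 at 4 hr and between 452 and 570 at 8 hr. The creatine transporter *Slc6a8* fell by 0.84 ± 0.08 and 0.37 ± 0.08 on the log2 scale. *Slc17a5*, which exports sialic acid from lysosomes, went from between 43.9 and 47.3 CPM to between 13 and 14 at 4 hr and between 19.3 and 23.1 at 8 hr. *Slc18a1*, a vesicular monoamine transporter, fell at both times from between 2.31 and 3.58 CPM. *Slc22a18* was called at 8 hr, at −1.31 ± 0.40 (adjusted p 0.0195), with 8 to 16 reads a library at 8 hr, and that call was lost without any 1 of 3 libraries (WT 0 hr replicate 1, WT 8 hr replicate 2 or S513A 0 hr replicate 1), with adjusted p values from 0.0584 to 0.0809.

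In the small groups, *Slc13a3*, a dicarboxylate transporter, rose from between 0.483 and 1.05 CPM to between 1.57 and 4.64 at 4 hr and between 2.98 and 4.51 at 8 hr. It passed the filter only with its LPS libraries. *Slc16a6* fell at 4 hr, by 1.35 ± 0.11 on the log2 scale, and was at −0.17 ± 0.11 (adjusted p 0.214, limma) at 8 hr. Of the monocarboxylate and dicarboxylate transporters 1 of 6 was higher and 2 lower at 4 hr, and 3 were higher and 1 lower at 8 hr (medians −0.01 and 0.44). For this group and those below, the shares of all genes were 29.1% higher and 26.7% lower at 4 hr. At 8 hr they were 24.5% and 21.6%. Of the nucleoside transporters 1 of 5 was higher and 2 lower at 4 hr, then 1 and 1 at 8 hr (medians −0.27 and −0.33), with the concentrative transporter *Slc28a2* rising by 0.66 ± 0.13 and 1.14 ± 0.13 and the lysosomal *Slc29a3* falling by 1.06 ± 0.10 and 0.64 ± 0.10. The 6 carriers of nucleotide sugars and other Golgi or ER cofactors gave 2 higher and 3 lower at 4 hr and 1 and 1 at 8 hr (medians −0.17 and −0.15), and *Slc35a4* rose by 0.26 ± 0.07 at 4 hr. The scaffold gene *Slc9a3r2* fell by 1.83 ± 0.21 and 1.38 ± 0.21. *Slc9a3r1* was higher at 4 hr by 0.36 ± 0.07, a direction that was lost under quantile normalization, where it stood at −0.01, and it was at 0.01 ± 0.07 at 8 hr.

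Between 4 and 8 hr the genes that rose outnumbered those that fell in some groups and not in others, a difference that was not tested. Of all genes tested, 12.8% rose and 12.8% fell, so in groups this small few falls or rises are usual. Of the sugar transporters 3 of 8 rose and none fell (median 0.39), of the vitamin and haem carriers 3 of 9 rose and none fell (median 0.34), and of the amino acid transporters 8 of 25 rose and 3 fell (median 0.10). Of the metal transporters 3 of 22 rose and 7 fell (median −0.02). The genes with the largest rises between the LPS times were *Slc6a9*, *Slc43a2*, *Slc27a6*, *Slc16a6* and *Slc36a1*, and those with the largest falls were *Slc9a9*, *Slc36a2*, *Slc39a14*, *Slc25a23* and *Slc44a1*. The call for *Slc27a6* (1.50 ± 0.45, adjusted p 0.0319, limma) was lost on leaving out any library but WT 4 hr replicate 1, S513A 4 hr replicate 2 or S513A 8 hr replicate 2, with values from 1.04 to 1.63, and that for *Slc25a23* (−1.38 ± 0.36, adjusted p 0.0182) without WT 4 hr replicate 2, WT 8 hr replicate 2 or S513A 4 hr replicate 2, from −1.28 to −1.03. The count of 26 genes that fell was 15 without WT 8 hr replicate 2 and 42 with the component shared by replicates as a term.

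**Figure D3:**
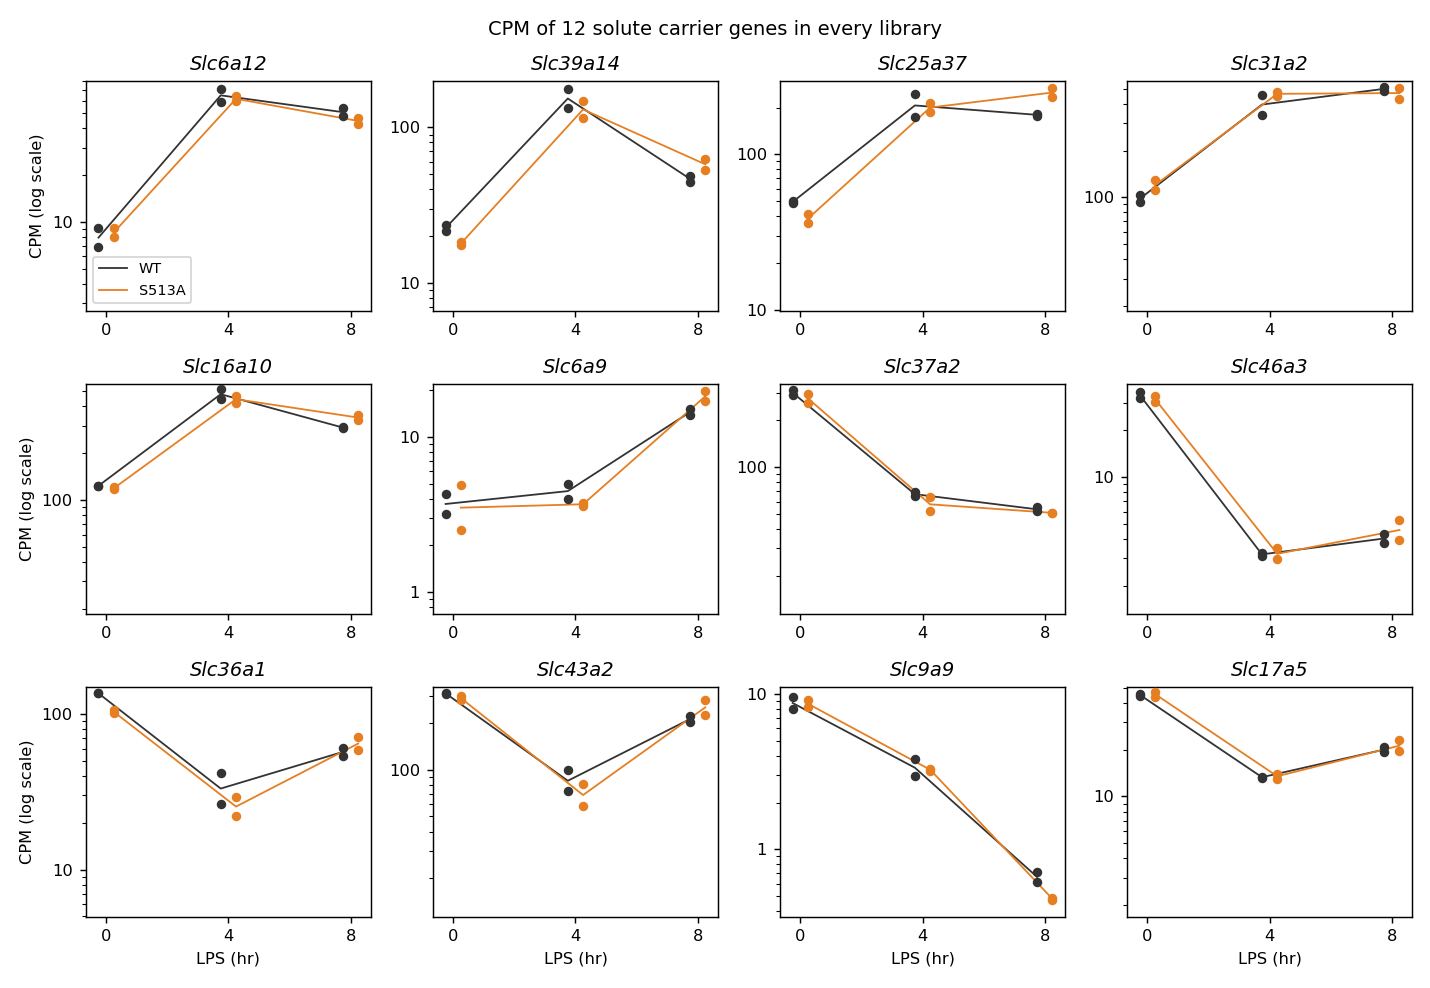
CPM on log axes of 12 SLC genes in every library at 0, 4 and 8 hr of LPS, in WT (dark) and S513A (orange) cells, with lines through the geometric means of the 2 libraries. *Slc6a12*, *Slc39a14*, *Slc25a37*, *Slc31a2* and *Slc16a10* stand above 0 hr at both LPS times, *Slc6a9* at 8 hr only, and *Slc37a2*, *Slc46a3*, *Slc36a1*, *Slc9a9* and *Slc17a5* stand below it at both, while *Slc43a2* is lowest at 4 hr, at 58 to 99.2 CPM.

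The second question was whether the S513A allele changes carrier expression. No SLC gene was called between S513A and WT cells at 0, 4 or 8 hr or over the mean of the times (limma, adjusted p under 0.05), where 0.0337, 0.0168, 0.0337 and 0.0673% of all genes were called. At an unadjusted p under 0.05, 8, 7, 18 and 12 of the 169 genes differed (4.73, 4.14, 10.7 and 7.1%), beside 7.98, 7.01, 12.5 and 6.71% of all genes. The 95% interval of the mean difference lay within 1.5-fold in either direction for 135 of the 169 genes and within 2-fold for 155. For the other 14 the interval reached beyond 2-fold. The smallest p of the mean difference was that of *Slc25a35*, a mitochondrial carrier, at −0.51 ± 0.13 (adjusted p 0.404). It measured 4.49 and 4.73 CPM in WT against 3.2 and 4.15 in S513A cells at 0 hr, 3.04 and 2.9 against 1.43 and 1.57 at 4 hr, and 2.8 and 3.29 against 2.89 and 2.44 at 8 hr. WT libraries were above S513A libraries at 0 and 4 hr and the genotypes overlapped at 8 hr, and 31.3% of its exons overlap *Rangrf*. *Slc25a35* also had the smallest p at 4 hr, at −0.99 ± 0.22 (adjusted p 0.622), and *Slc25a18*, a glutamate carrier, that at 0 hr, at −1.28 ± 0.36 (adjusted p 0.586), with 1.85 and 2.35 CPM in WT and 0.922 and 0.797 in S513A cells.

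The largest fitted difference between the genotypes over the mean of the times was that of *Slc15a2*. This gene, whose product takes up peptides with protons, had 0 reads at 0, 4 and 8 hr in S513A replicate 1 and 23, 10 and 8 reads in S513A replicate 2. WT replicate 1 had 26, 9 and 7 reads and WT replicate 2 had 42, 18 and 14. The fitted difference of −2.55 ± 1.11 (adjusted p 0.724, limma) rests on the libraries of S513A replicate 1 and on the 0.5 read added to each count. Of the 11885 genes tested, *Slc15a2* was the only one at 0 reads in all 3 libraries of one number with at least 5 reads in each library of the other number of that genotype. It was singled out after its values were seen.

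The response to LPS was also compared between genotypes by the interaction term. No SLC gene was called at 4 hr or at 8 hr (limma), where 0% of all genes were called in each, and 3 and 22 of the 169 (1.78 and 13%) had an unadjusted p under 0.05, beside 1.21 and 20.2% of all genes. At 4 hr the smallest p was that of *Slc16a5*, a monocarboxylate transporter relative at 0.592 to 2.15 CPM over the 12 libraries (−1.28 ± 0.51, adjusted p 1). At 8 hr it was that of *Slc6a13*, which rose by 2.88 ± 0.39 on the log2 scale in WT cells and measured 0.57 ± 0.39 (adjusted p 0.266) in S513A cells, a difference of −2.31 ± 0.55 with an adjusted p of 0.193. At 8 hr the S513A libraries lay below both WT libraries (adjusted p 0.395 for that difference). *Slc25a37* rose at 8 hr by 1.86 ± 0.16 in WT cells against 2.70 ± 0.16 in S513A cells, and *Slc7a8* by 1.23 ± 0.19 against 2.18 ± 0.19, also with adjusted interaction p values of 0.193. With the component shared by replicates as a term, 36 SLC genes and 28.5% of all genes were called in the interaction at 8 hr. Those p values are biased low, as the component was taken from these same data. None was called when that component was scored in every library, an alternative chosen after seeing the data.

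**Figure D4:**
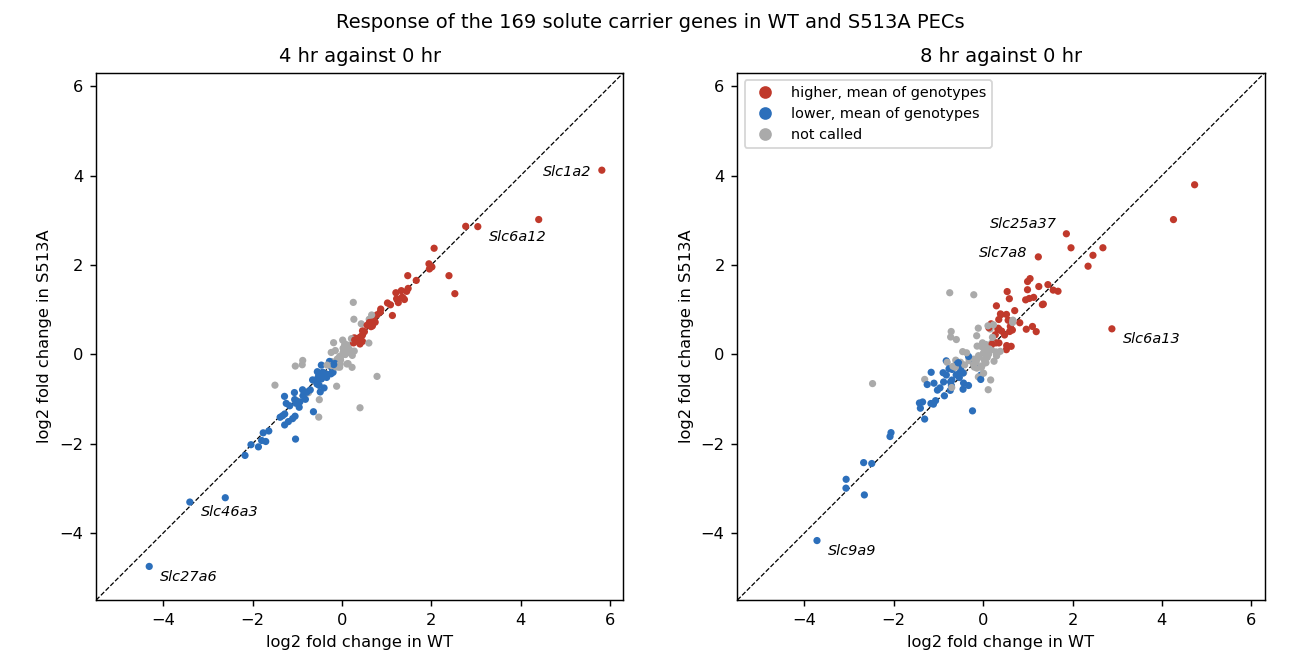
Log2 fold change of the 169 SLC genes in WT (horizontal) and S513A (vertical) cells at 4 hr (left) and 8 hr (right) against 0 hr, with the line of equal change dashed and colors for the call on the mean of the genotypes (limma, adjusted p under 0.05). Called genes keep their sign in both genotypes, which calling on the mean favours. *Slc6a13* at 8 hr lies at 2.88 in WT and 0.57 in S513A cells, with an adjusted interaction p of 0.193 (limma).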

How the data were processed

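RNA-seq of thioglycollate-elicited PECs (12 libraries, 2 for each genotype at 0, 4 and 8 hr of LPS) was used as deposited. The authors mapped paired reads as unstranded to mm10 with HISAT2 and counted them with featureCounts 1.6.3. The deposited values are log2 CPM, normalized by the authors and computed after adding 0.5 read to each count. Multiplying by the effective library size gave whole reads (largest departure 0.00156 read), used here to print reads. The program behind the normalization and the gene annotation are not given in the sources used here. CPM are 2 to the power of the deposited log2 value.

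A gene was tested if 2 or more libraries reached 1 CPM. The test was limma 3.58.1 (R 4.3.3) on the deposited log2 scale (a mean for each of 6 groups, 6 residual degrees of freedom, prior following the mean), two-sided, adjusted by Benjamini-Hochberg over 11885 genes, threshold 0.05. Groups were taken from the labels. SLC genes were grouped by substrate from their family number, with exceptions by gene. The SLC genes and all lists were chosen with earlier results of these data known. Genes named are the 10 largest changes in each direction at 4 and at 8 hr against 0 hr, and the 5 largest between 8 and 4 hr, with libraries of the 2 times apart, the smallest p of each genotype contrast, and the most abundant of each substrate group per kb. Other genes were named after their values were seen. The result of 1 SLC gene is not reported here. Positions and promoters are RefSeq (GRCm38.p6), exon lengths GENCODE. Counting intervals cover counting error only. Alternatives were no filter, a mean of 5 CPM, a pseudocount of 1 CPM, median-ratio scaling, quantile normalization, voom weights, no trend, a robust prior, a replicate block, a shared component, each genotype alone and each library left out. The model was tested on simulated data. Tables and plots used Python 3.11.15, pandas 2.3.3 and matplotlib 3.10.9.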

Additional observations from a re-analysis of the deposited data

How the results depend on the processing

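Of the SLC genes called over both genotypes, *Slc9a3r1* at 4 hr alone changed direction under an alternative (quantile normalization). Values of named genes were on the same side of the threshold in 1223 cases, lost their call in 22 and gained it in 1. With both genotypes in the model, 79 of the 109 calls at 4 hr, 60 of 100 at 8 hr and 39 of 64 between 4 and 8 hr kept their call in all 22 alternatives. The fewest were kept with a mean of at least 5 CPM (92 and 77 at 4 and 8 hr), which tests fewer genes, and without WT 8 hr replicate 2 (44 between 4 and 8 hr). In WT libraries only, which leaves fewer samples, 39 genes were lower at 4 hr, 33 higher at 8 hr, and 12 higher and 10 lower at 8 hr than at 4 hr. In S513A libraries only, 32 were lower at 8 hr and 14 lower at 8 hr than at 4 hr. The count of genes lower at 8 hr than at 4 hr, 26 with all libraries, was 42 with the component shared by replicates as a term and between 15 and 30 with each library left out. With that component, 2 genes (*Slc12a7* and *Slc30a1*) were called between the genotypes over the mean of the times and 36 in the interaction at 8 hr, *Slc6a13* among them (adjusted p 0.0053, limma). That component was taken from these same data and lowers only the residual spread, so these adjusted p values are biased low. With its score in every library, chosen after seeing the data, 1 gene (*Slc30a1*) and none were called. The cause was not tested. In S513A libraries only, *Slc6a13* was not called at 8 hr (0.57, adjusted p 0.33), nor *Slc22a18* (−1.21, adjusted p 0.161).

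Replicate numbers were not taken to pair the samples, as not every correlation passed 0.1: deviations of same-numbered libraries of a genotype correlated at −0.03, 0.08 and −0.10 in WT and 0.15, 0.09 and 0.42 in S513A. The libraries of S513A replicate 1 share the absence of *Slc15a2* reads, and whether they share a source was not tested. If they do, p values for genotype, which take libraries as independent, are too small. With a replicate block, 49 genes were higher and 59 lower at 4 hr, 53 and 46 at 8 hr, and 36 and 26 between 4 and 8 hr. Depth limits genes under about 10 reads a library, such as *Slc1a2* and *Slc6a4* at 0 hr and *Slc9a9* at 8 hr.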

Other observations

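Among the SLC genes, 12 encode transporters of the lysosome or late endosome (*Slc15a3*, *Slc15a4*, *Slc17a5*, *Slc26a11*, *Slc29a3*, *Slc2a8*, *Slc36a1*, *Slc36a4*, *Slc38a7*, *Slc38a9*, *Slc46a3* and *Slc48a1*), a list written after their values were seen and not a full one (*Slc31a2*, which rose, is also known from these membranes). At 4 hr, 9 of the 12 were lower and 1, *Slc15a3*, was higher (limma, adjusted p under 0.05), with a median log2 fold change of −0.91, where 26.7% of all genes were lower and 29.1% higher. At 8 hr, 6 were lower and 2, *Slc15a3* and *Slc48a1*, were higher, with a median of −0.41, beside 21.6 and 24.5% of all genes. Between 4 and 8 hr 8 rose and none fell, with a median of 0.50, where 12.8% of all genes rose and 12.8% fell. The list was written with the falls at 4 hr seen, and this contrast reuses the 4 hr libraries. A rise was therefore favoured by the choice of genes.

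Transporters filed under other symbols, from a list of 43 of which 30 were tested, gave 3 higher and 14 lower at 4 hr and 5 higher and 13 lower at 8 hr (median log2 fold changes −0.22 and −0.27, limma). Of all genes tested, 29.1% were higher and 26.7% lower at 4 hr, and 24.5% higher and 21.6% lower at 8 hr. The organic anion transporter genes *Slco3a1* and *Slco4a1* were higher at 4 hr by 5.11 and 1.59 on the log2 scale, while *Slco2b1*, the haem exporter gene *Flvcr1* and the phosphate exporter gene *Xpr1* were lower, at −4.63, −2.05 and −0.83. Of the 9 SLC genes set aside by the rule, 5 were higher and 2 lower at 4 hr, and 6 and 2 at 8 hr (medians 0.47 and 0.56), beside the same shares of all genes.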
